A study of Homo sapiens with 16 samples.

Results

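Ewing sarcoma is usually driven by a chromosomal exchange that joins EWSR1 to an ETS family gene, most often FLI1 and less often ERG. The chromatin of these partner genes, and of the related gene ETS1 that neighbours FLI1, was described here in TC-71 and TC-32 cells, which are established Ewing sarcoma cell lines. All peaks of 6 deposited lists were taken that share at least 1 bp with any of 3 windows of the human genome build hg19. The windows were chromosome 11, 128.30 to 128.75 Mb, for ETS1 and FLI1, chromosome 22, 29.63 to 29.73 Mb, for EWSR1, and chromosome 21, 39.70 to 40.08 Mb, for ERG. They held 26 of the 114213 peaks of all lists: 10 in the ETS1-FLI1 window, 9 in the EWSR1 window and 7 in the ERG window.

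TC-71 is labelled as a post-chemotherapy line and TC-32 as a line from diagnosis, and no treatment was compared. Both were grown in the same medium. The 16 samples were ChIP-seq libraries for BORIS, SMC1 and H3K27ac and input libraries, 2 of each per line. BORIS (CTCFL) binds DNA and is the germline paralog of CTCF. SMC1 belongs to cohesin, the ring complex that holds chromatin loops, and H3K27ac marks active promoters and enhancers. Both samples of a line and antibody share 1 list, so values have no replicate error, no test between lines was possible, and read depth is unknown. The TC-71 lists held 26334 H3K27ac domains, 18264 SMC1 peaks and 534 BORIS peaks, and the TC-32 lists 36355, 32720 and 6 of these.

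EWSR1 encodes an RNA-binding protein with an activating amino-terminal part and is transcribed in nearly all cells. FLI1, ERG and ETS1 encode transcription factors whose ETS domain binds DNA with the core GGAA. FLI1 and ERG act in blood and vessel cells, and ETS1 in lymphocytes and vessels. The fusion keeps the promoter and 5′ exons of EWSR1 and the 3′ exons of its partner with the ETS domain, so the EWSR1 promoter drives the fusion gene. Both lines are known to carry EWSR1-FLI1. Peaks were placed on the reference genome, so signal from the rearranged and the normal copy cannot be told apart.

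The window with acetylation and a window without it can be set beside the promoter sequences that RefSeq lists for their genes, since these carry the start of the fusion gene and of a partner. Below are the 250 bases before a listed start, 5′ to 3′ along the gene, from the RefSeq table of GRCh38.p14. The core GGAA, or TTCC on the other strand, is in capitals. EWSR1 (plus strand) is at chr22:29268018-29268267 and ERG (minus strand) at chr21:38660668-38660917 of that build, which is not the build of the peaks.
EWSR1: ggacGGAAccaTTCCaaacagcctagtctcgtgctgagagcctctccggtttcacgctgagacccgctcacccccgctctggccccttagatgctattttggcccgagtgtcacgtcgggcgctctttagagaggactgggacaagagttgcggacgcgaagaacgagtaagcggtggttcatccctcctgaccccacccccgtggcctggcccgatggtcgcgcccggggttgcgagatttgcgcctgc
ERG: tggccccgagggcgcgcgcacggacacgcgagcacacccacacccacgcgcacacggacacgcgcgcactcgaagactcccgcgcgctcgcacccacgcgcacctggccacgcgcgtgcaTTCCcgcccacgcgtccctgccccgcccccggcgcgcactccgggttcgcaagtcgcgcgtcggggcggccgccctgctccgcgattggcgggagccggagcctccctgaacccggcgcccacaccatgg

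The EWSR1 promoter held 22 CG pairs in its 250 bases, more than 72.0% of the 35114 promoter entries in the table. The ERG promoter shown held 44, more than 99.2% of them. It is 1 of 4 ERG starts in the table, whose CG counts ran from 2 to 44. EWSR1 had 1 GGAA and 1 TTCC, and the ERG promoter had 1 TTCC. Since 92.7% of all entries hold at least 1 such core, with a median of 3.00, these matches set neither promoter apart. Promoters were matched for 2 of the 4 genes, and FLI1 and ETS1 are named without one.

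Acetylation divided the 3 windows in the same way in both lines. The EWSR1 window held 2 H3K27ac domains in TC-71 and 3 in TC-32. Neither line listed a domain (0) in the ETS1-FLI1 or the ERG window. Domains covered 5.21 kb of the EWSR1 window in TC-71 and 5.32 kb in TC-32, or 5.21% and 5.32% of it, against 1.41% and 2.15% of the genome.

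The leading domain of the EWSR1 window, called the leading EWSR1 domain here after the window, was among the highest-ranked of the genome. In TC-71 it spanned chromosome 22, 29661903 to 29665987, a width of 4085 bp. The authors' fold enrichment over the background from input was 9.43 there, against a list median of 3.81. By −log10 q, the authors' measure of how far a peak stands above background, it ranked 91 of 26334 with a value of 53.0. In TC-32 the domain spanned 29662255 to 29665624, a width of 3370 bp. Its fold was 9.75, against a list median of 3.53, and it ranked 89 of 36355 with a −log10 q of 67.0. The TC-32 domain lay wholly within that of TC-71, and 82.5% of the TC-71 domain was shared. No SMC1 or BORIS peak of either line lay in this domain.

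A smaller domain was 36.5 kb farther along in TC-71 and 36.7 kb in TC-32. It spanned 29702442 to 29703562 in TC-71, with a fold of 4.54, above 64.1% of its list by −log10 q. In TC-32 it spanned 29702286 to 29703626, with a fold of 5.84, above 81.3% of its list. TC-32 listed a further domain, 29706862 to 29707471, with a fold of 2.72 and above 4.16% of its list, close to the weakest that were deposited. The TC-71 list held none there. By order along the chromosome in RefSeq, EWSR1 lies between RHBDD3 on the lower and GAS2L1 on the higher side. RHBDD3 is on the minus strand and EWSR1 on the plus strand. No domain was assigned to a gene, since no annotation of hg19 was used here.

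**Figure D1:**
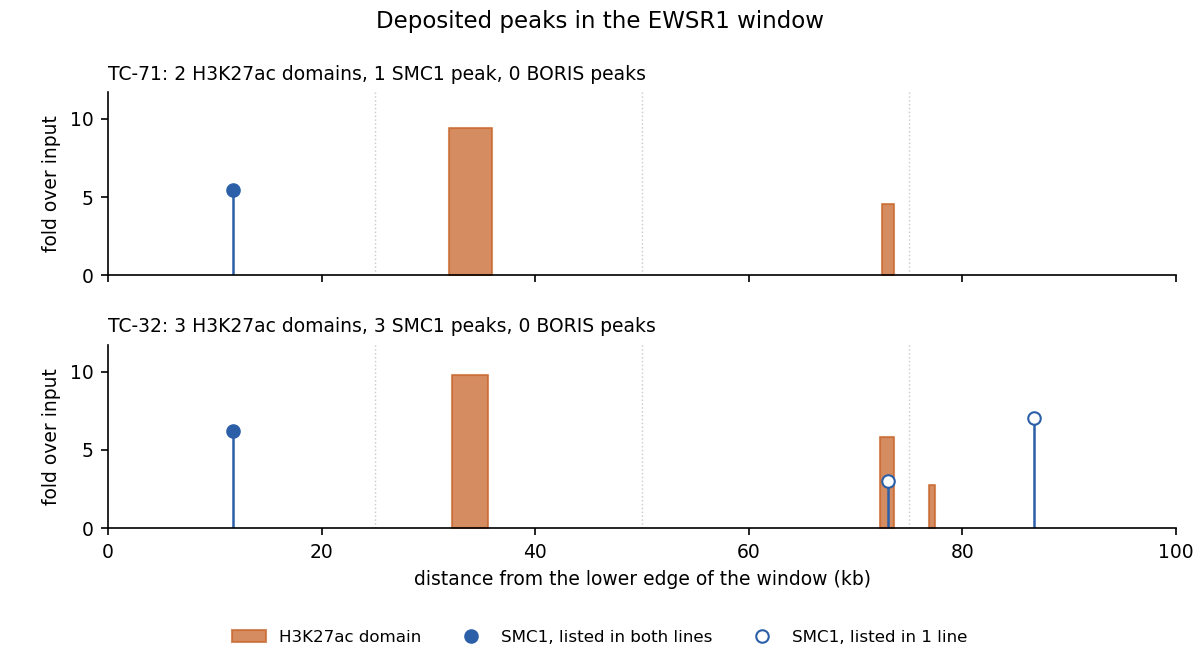
Fold enrichment over input (vertical axis) of each deposited peak along the EWSR1 window (horizontal axis, kb from its lower edge), TC-71 above TC-32. Bars are H3K27ac domains drawn to width, stems are SMC1 summits, filled where the other line lists an overlapping peak, and dotted lines divide the window into 4 equal parts. The same pair of domains appears in both lines, with folds of 9.43 and 4.54 in TC-71 and 9.75 and 5.84 in TC-32, and the 2 open SMC1 stems are in TC-32.

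The leading EWSR1 domain was not part of a wide cluster. When domains were joined over the distance usual for super-enhancers and ranked by length times fold, it stayed alone in both lines. It then ranked 970 of 16831 clusters in TC-71 and 1977 of 22372 in TC-32. The steep part of the rank curve, where the scaled curve has a slope above 1, as used for super-enhancers, held 669 clusters in TC-71 and 900 in TC-32, and the EWSR1 domain was outside it in each line. Joining within 5 kb placed it at 798 of 20289 in TC-71, inside the 994 of the steep part, and at 1645 of 27813 in TC-32, outside the 996 there. Its call in TC-71 thus changed with the joining distance.

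SMC1 marked a shared site below the leading EWSR1 domain. It spanned 29641620 to 29641767 in TC-71, with a fold of 5.47 and a −log10 q of 12.8. In TC-32 the site spanned 29641580 to 29641815, with a fold of 6.19 and a −log10 q of 23.6. The summits were 14 bp apart, and the leading domain began 20.2 kb from the TC-71 summit and 20.6 kb from that of TC-32. TC-32 listed a peak at 29716635 to 29716849, with a fold of 7.03, that TC-71 did not. With lists of equal length, each line had 1 SMC1 peak in the window. The full TC-32 list also held one at 29702976 to 29703148, inside the smaller domain, with a fold of 3.00 and above 0.211% of its list. This last was the only SMC1 peak of the 3 windows, in either line, within an acetylated domain.

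The ETS1-FLI1 window, 450 kb long, carried cohesin without acetylation in either line. A window without a domain was not rare over the genome: 29.6% of adjacent 450 kb tiles held no TC-71 domain and 19.2% no TC-32 domain. The 100 kb tiles, the length of the EWSR1 window, held none in 60.3% for TC-71 and 50% for TC-32. The window lay in a longer stretch without a domain, of 2030 kb in TC-71 and 851 kb in TC-32. In TC-71, 155 of the 26311 stretches between neighbouring domains were at least as long, and in TC-32, 430 of 36332. The median stretch was 26.1 kb in TC-71 and 21.7 kb in TC-32. Stretches across centromeres are among these counts. A stretch that holds an empty window of 450 kb must be at least that long. Its rank among all stretches and their median therefore do not show how rare such a place is in the genome.

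The stretch ended nearer to FLI1 in TC-32. The nearest domain above the window was 381 kb away in TC-71 (129130595 to 129131677, fold 3.78) and 25.3 kb away in TC-32 (128775264 to 128775628, fold 3.16). That TC-32 domain was 365 bp wide and above 27% of its list. Below the window, the nearest was 1199 kb away in TC-71 (127097647 to 127100663, fold 5.08) and 376 kb away in TC-32 (127921537 to 127923872, fold 4.98). When domains under a −log10 q of 5 were left out, the stretch was 2048 kb in TC-71 and 1225 kb in TC-32. In TC-32 this left out 2 weak domains, centred 250 kb (fold 3.16) and 491 kb (fold 3.19) above the window centre. The stretch then ended in each line at a domain 624 kb above that centre.

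**Figure D2:**
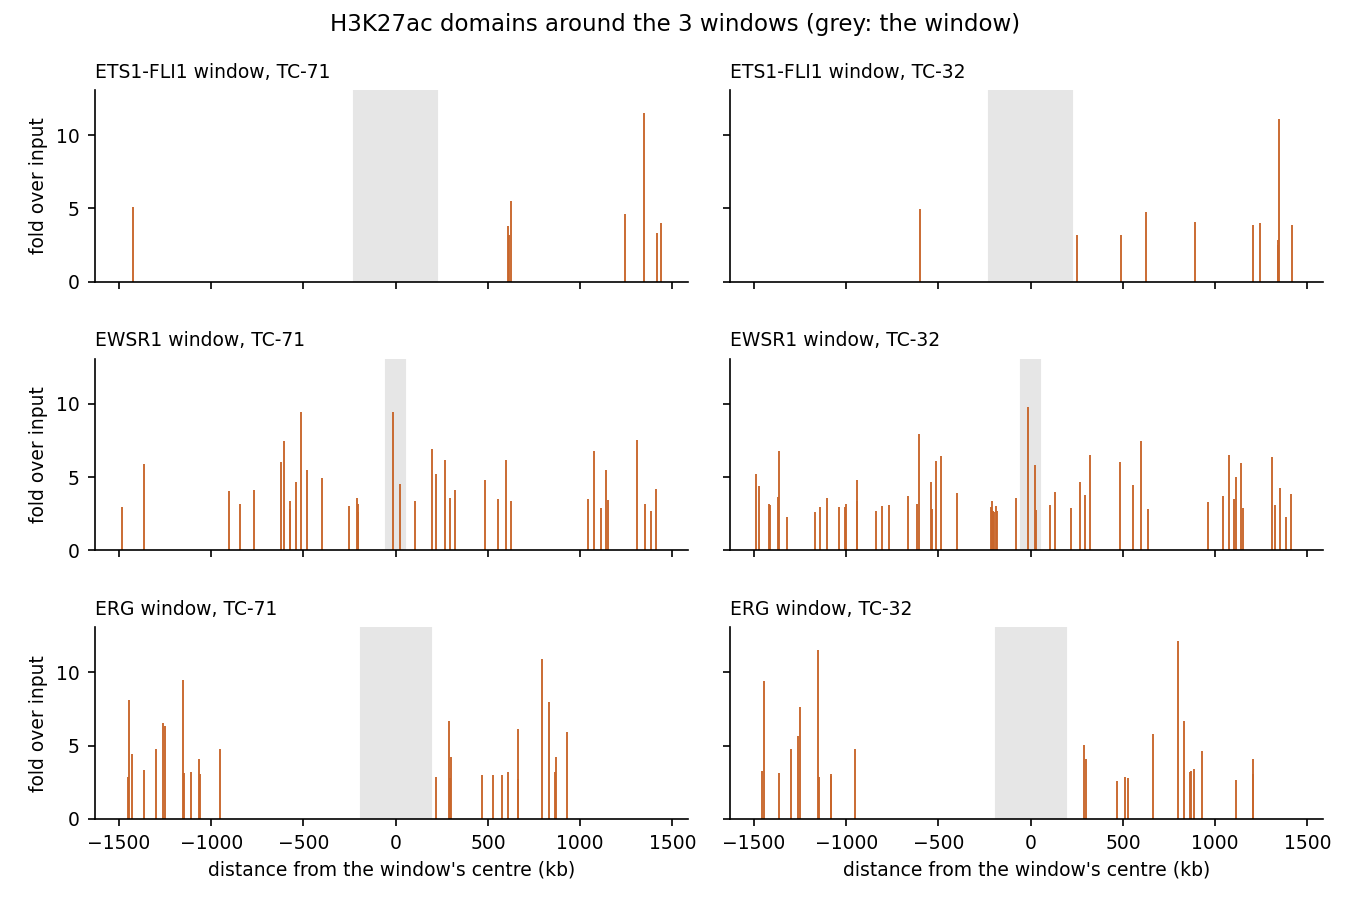
Fold enrichment over input of each H3K27ac domain within 1500 kb of the centre of each window (horizontal axis, kb from the centre), TC-71 on the left and TC-32 on the right. The grey band is the window. The ETS1-FLI1 and ERG bands are empty in both lines, and 8 domains lie around the ETS1-FLI1 centre in TC-71 and 11 in TC-32, against 38 and 59 around EWSR1.

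The SMC1 peaks of the ETS1-FLI1 window numbered 3 in TC-71 and 7 in TC-32. At the mean density of each list a window of this length would hold 2.71 and 4.85. The strongest site of TC-32 was the lower of a close pair. In TC-71 this peak spanned chromosome 11, 128500374 to 128500518, with a fold of 7.76, above 56.2% of its list. In TC-32 it spanned 128500340 to 128500570, with a fold of 14.9, above 81.8% of its list. The upper peak of the pair spanned 128502139 to 128502266 in TC-71, with a fold of 7.2. In TC-32 it spanned 128502042 to 128502305, with a fold of 6.46. The summits of the pair were 1.75 kb apart in both lines. A neighbouring summit within 2 kb was found for 5.70% of all TC-71 and 13.0% of all TC-32 SMC1 peaks.

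A further shared site lay 199 kb farther along in TC-71. It spanned 128701167 to 128701300 in TC-71, with a fold of 5.88 and a −log10 q of 9.25. In TC-32 it spanned 128701125 to 128701363, with a fold of 9.63 and a −log10 q of 30.5. Between the pair and this site no TC-71 list held a peak, whereas TC-32 listed 2 SMC1 peaks. These spanned 128646468 to 128646627, with a fold of 3.15, and 128672650 to 128672798, with a fold of 6.12. The TC-32 list had further peaks at 128718847 to 128718986 (fold 5.39) and 128425589 to 128425758 (fold 3.05). The 4 peaks listed in TC-32 alone were above 1.75%, 44.7%, 23.6% and 7.45% of their list, in the order given. All 4 were below the median of their list. When the TC-32 list was reduced to the 18264 peaks of highest −log10 p, the length of the TC-71 list, the window held 3 SMC1 peaks in TC-71 and 4 in TC-32. Among these 4, only the peak at 128672650 was not listed in TC-71.

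**Figure D3:**
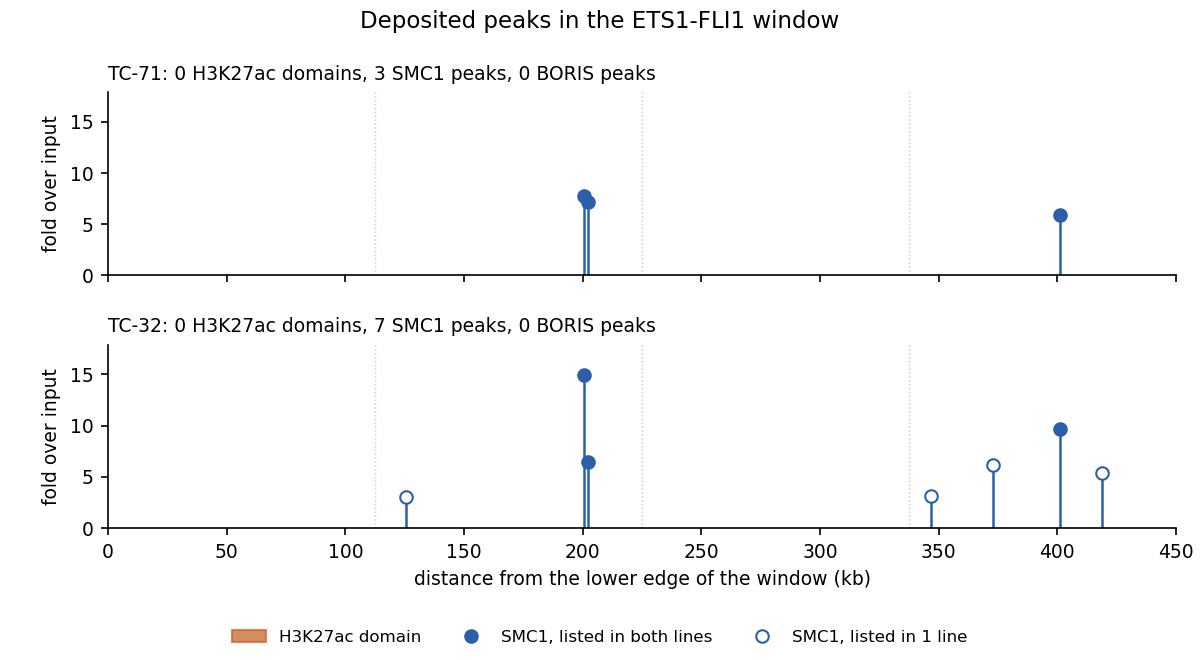
Fold enrichment over input of each SMC1 summit along the ETS1-FLI1 window (kb from its lower edge), TC-71 above TC-32, with the same symbols as for EWSR1. A close pair near 200 kb and a site near 401 kb are filled in both lines, and the 4 open stems are in TC-32. No H3K27ac bar appears, since neither line listed a domain.

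The ERG window, 380 kb long, likewise held SMC1 peaks and 0 domains in both lines. Tiles of this length held no domain in 32.9% of cases for TC-71 and 22.1% for TC-32. The stretch without a domain was 1170 kb in TC-71 and 1240 kb in TC-32. Its lower end was set by overlapping domains of the 2 lines, 763 kb below the window in each. Its upper end was a domain 26.2 kb above the window in TC-71 (40106163 to 40106538, fold 2.86) and 97.3 kb above it in TC-32 (40177263 to 40179557, fold 5.05). The small TC-71 domain touched a strong TC-71 SMC1 peak, 40105897 to 40106166, with a fold of 10.5. TC-32 listed that SMC1 peak as well, at 40105869 to 40106251 with a fold of 7.55 and the same summit, with no domain there.

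SMC1 peaks of the ERG window numbered 3 in TC-71 and 4 in TC-32, where list density would give 2.29 and 4.09. With lists of equal length the counts were 3 in TC-71 and 1 in TC-32, so the order of the lines turned with list length. In the full lists every TC-71 site was also listed in TC-32, and at equal length only the site at 39728017 was. The strongest in both lines spanned chromosome 21, 39728017 to 39728195, in TC-71, with a fold of 5.40, above 57.7% of its list. In TC-32 it spanned 39728019 to 39728253, with a fold of 12.3, above 79.0% of its list. The next spanned 39877684 to 39877843 in TC-71 (fold 3.86) and 39877710 to 39877900 in TC-32 (fold 5.29). The last spanned 40041243 to 40041394 in TC-71 (fold 4.96) and 40041192 to 40041471 in TC-32 (fold 4.32). Both of these ranked low, above 9.34% and 9.24% of the TC-71 list and 29.8% and 26.5% of the TC-32 list. The 3 shared sites were spaced at 150 kb and 164 kb in each line. TC-32 alone listed 39724635 to 39724794, with a fold of 5.70, at 3.39 kb from the strongest site.

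**Figure D4:**
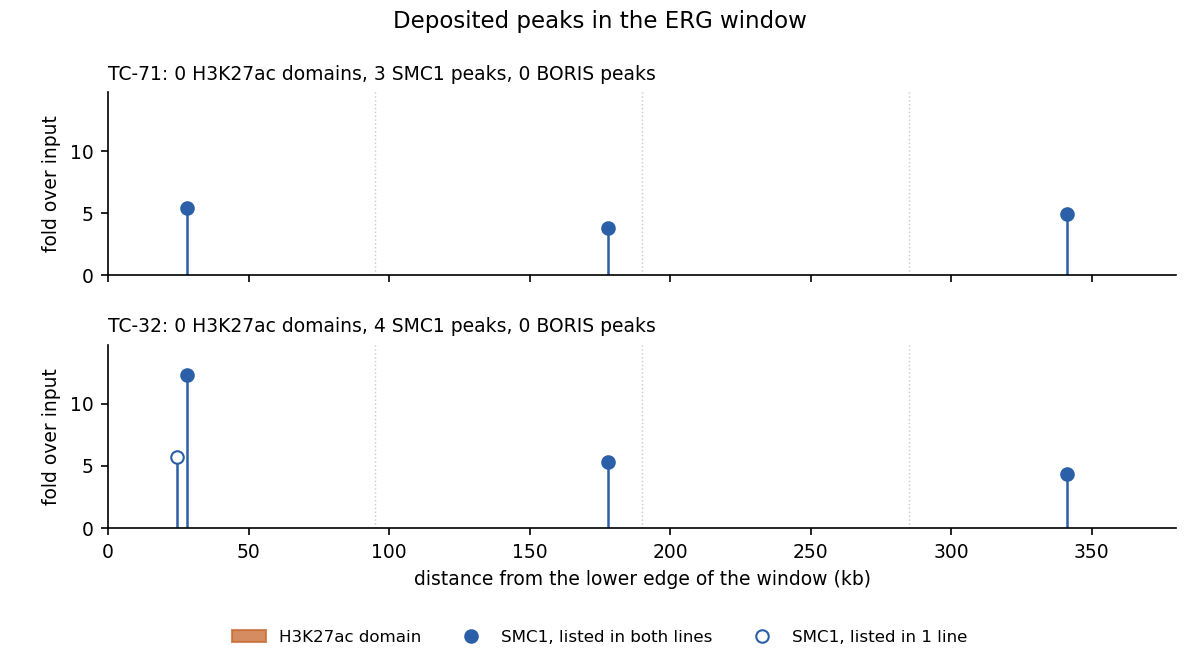
Fold enrichment over input of each SMC1 summit along the ERG window (kb from its lower edge), TC-71 above TC-32, with filled stems for sites of both lines. The 3 filled stems stand at 28.1, 178 and 341 kb in both lines, and the open stem beside the first is in TC-32.

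BORIS was not listed in any of the 3 windows, with 0 peaks in either line. BORIS was rare over the genome, so this is the common case: 92.8% of 450 kb tiles, 93.7% of 380 kb tiles and 98.2% of 100 kb tiles held no TC-71 BORIS peak. The nearest TC-71 BORIS peak was 484 kb above the ETS1-FLI1 window (129234160 to 129234271, fold 6.48), 1093 kb above the EWSR1 window (30822624 to 30822716, fold 3.48) and 1580 kb below the ERG window (38120187 to 38120271, fold 6.43). In TC-32 the nearest was 65691 kb below the ETS1-FLI1 window and 29874 kb below the ERG window, and chromosome 22 had none.

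The usual breakpoints lie inside the genes, in introns toward the middle or 3′ part of EWSR1, FLI1 and ERG. Exons were not placed on hg19 here, so only the side of each window's midpoint was recorded. EWSR1 and FLI1 are transcribed toward higher coordinates, and ERG and ETS1 toward lower ones. The strand of EWSR1 and of ERG was read from the RefSeq table, and that of FLI1 and ETS1 is textbook knowledge. The fusion therefore keeps the lower side of EWSR1, the higher side of FLI1 and the lower side of ERG, counted along each gene. The midpoint of a window was not matched to a breakpoint or to the ends of a gene. The sides of a window therefore do not divide the kept from the lost part of a gene.

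In the EWSR1 window, the leading domain was below the midpoint, on the side toward the 5′ end of EWSR1, in both lines. That side held 1 domain and 1 SMC1 peak in TC-71 and 1 and 1 in TC-32. The higher side held 1 domain and 0 SMC1 peaks in TC-71, and 2 and 2 in TC-32. All of these are counts of the full lists. With lists of equal length, TC-32 kept 2 domains in the window. It then kept 1 SMC1 peak there, the shared site on the lower side. The higher side of the ETS1-FLI1 window, toward FLI1, held 0 domains in both lines, and SMC1 there had 1 TC-71 peak and 4 TC-32 peaks. All of these SMC1 peaks were above 128.6375 Mb, toward the upper edge of the window. The lower side, toward ETS1, held 2 SMC1 peaks in TC-71 and 3 in TC-32. With lists of equal length, TC-32 kept 4 SMC1 peaks in this window. Those at 128646468 and 128718847 on the higher side and at 128425589 on the lower side were left out. In the ERG window, the lower side, toward the 3′ end, held 2 SMC1 peaks in TC-71 and 3 in TC-32, and the higher side 1 and 1. At equal length, 1 TC-32 peak remained in this window, on the lower side. Neighbouring genes may reach into these windows, so a side is not a gene. Examples are GAS2L1 on the higher side of EWSR1 and KCNJ1 on the higher side of FLI1. The higher-side peaks of the EWSR1 window were not shown to lie within EWSR1, nor those of the ETS1-FLI1 window within FLI1.

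Across the windows, in the full lists, a smaller share of TC-32 than of TC-71 SMC1 peaks was listed in the other line. All 7 TC-71 peaks (100%, exact Clopper-Pearson 95% interval 59.0 to 100%) overlapped a TC-32 peak, close to the 90.3% of the whole TC-71 list. Of the 14 TC-32 peaks, 7 overlapped a TC-71 peak (50%, 23 to 77%), beside 50.3% of the whole TC-32 list. The sharing in these windows was thus near that of the lists as a whole. With lists of equal length, 71.4% of the TC-71 peaks and 83.3% of the remaining TC-32 peaks were shared. The full overlap of the TC-71 peaks was thus not kept with the shortened TC-32 list, though 71.4% lay within the interval for the full lists. At the 7 shared sites the summits of the lines were a median of 10.0 bp apart, with a range of 3 to 18 bp. Within the TC-32 list, shared sites stood above 26.5 to 81.8% of peaks, and unshared ones above 0.211 to 44.7%.

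For H3K27ac, both of the TC-71 domains (2 of 2) overlapped a TC-32 domain, beside 67.3% of the whole list. For TC-32 the count was 2 of 3, beside 47.1%. Counts this small allow no reading against those shares.

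**Figure D5:**
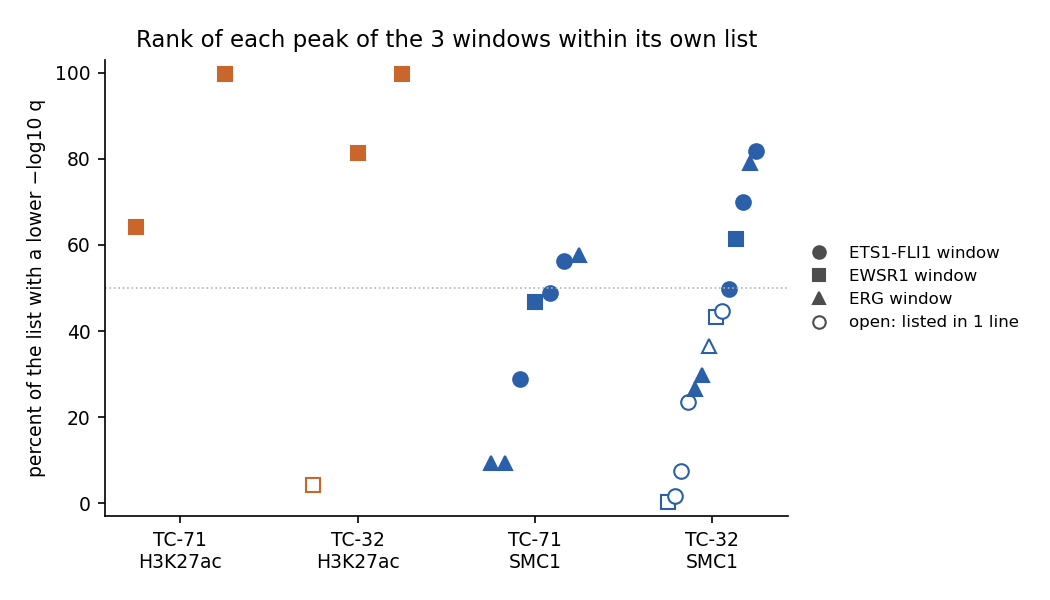
Percent of the list with a lower −log10 q (vertical axis) for each peak of the windows, by antibody and line, with TC-71 left of TC-32; shapes give the window, and open symbols are peaks listed in 1 line. The leading EWSR1 domain is at 99.7 in TC-71 and 99.8 in TC-32, TC-71 SMC1 peaks reach 57.7 and TC-32 SMC1 peaks 81.8.

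SMC1 peaks of these windows were mostly far from acetylation. In TC-71, 0 of 7 lay in a TC-71 domain (exact interval 0 to 41.0%), beside 13.6% of the whole list. A limit of 3 counts in place of 0 would allow 42.9%. In TC-32, 1 of 14 lay in a TC-32 domain (7.14%, 0.181 to 33.9%), beside 25.9% of the list. Of these peaks, 6 in TC-71 and 11 in TC-32 lay in the ETS1-FLI1 and ERG windows, which held no domain, so they could not overlap one. Both counts thus largely restate the empty windows, and the intervals treat neighbouring peaks as independent. No reading of SMC1 against acetylation is drawn from them, and the distances that follow have the same limit. The distance from summit to the nearest domain had a median of 378 kb in TC-71 and 132 kb in TC-32, against 26.3 kb and 13.1 kb over the lists. Outside the EWSR1 window the distances ran from 64.9 to 630 kb in TC-71 and from 56.3 to 453 kb in TC-32. The SMC1 peaks were 128 to 179 bp wide in TC-71, all below the list median of 186 bp. In TC-32 they were 140 to 280 bp wide, on both sides of the list median of 236 bp.

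The window edges left out a few peaks. Within 50 kb outside them lay 2 SMC1 peaks and 1 domain in TC-71, and 6 SMC1 peaks and 2 domains in TC-32. The shared SMC1 site closest to an edge was 4.73 kb above the ETS1-FLI1 window in TC-71 (128754727 to 128754928, fold 4.65) and 4.72 kb above it in TC-32 (128754717 to 128754875, fold 3.52). Inside that edge, the last shared site was the one at 128701167 in TC-71 and 128701125 in TC-32.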

How the data were processed

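Per the labels' protocols, crosslinked and sonicated chromatin was immunoprecipitated. Per the submitters' processing notes, MACS2 2.1.1, STAR 2.5.1b, deepTools 2.2.4, Picard and SAMtools 1.3.1 were used with hg19. Their roles, settings and the handling of replicates were not given in the sources used here. For each peak, the authors deposited a fold enrichment (a ratio over input background), −log10 p, −log10 q, a score (a whole-number rescaling of −log10 q) and, in narrow lists, a summit. Fold and −log10 q are the authors' and describe peaks within a list only.

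Repeated intervals were counted once, with the summit of highest −log10 q, on chromosomes 1 to 22 and X. Tiles left out centromeric, variable and stalk bands (circlize 0.4.16). Intervals on shares cover counting error only. Computation used scipy 1.17.1, pandas 2.3.3, matplotlib 3.10.9, numpy 2.4.6 and Python 3.11.15, and overlap code was tested on simulated data. Gene names, their order and the strands of EWSR1 and ERG came from RefSeq tables of GRCh38.p14. The rule named every BORIS peak and, per window and line, the 3 SMC1 peaks and 5 domains of highest −log10 q; other peaks were named after their values were seen. Members and lists were chosen with earlier results of these data known. Alternatives tried were a floor of 5 on −log10 q, lists of equal length, 50% coverage, peak centres, wider windows, summits and other stitching.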

Additional observations from a re-analysis of the deposited data

How the results depend on the processing

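No paired analysis was possible because both samples of a line and antibody share 1 list; for the same reason there are no values with a replicate left out. Of 130 alternative values, 112 stayed within 1.5 times the main count or length, or within the interval of the main share, and 18 moved. Many of the 112 could not have moved. A floor on −log10 q, the peak-centre rule or a shortened list cannot add a peak to an empty window. With lists of equal length, the TC-71 H3K27ac and SMC1 lists were the main lists, so their counts and lengths were fixed. The tally therefore does not measure how stable the results are. Depth limits all counts of weak peaks and is unknown.

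Lists of equal length gave TC-32 4 SMC1 peaks (0.883 kb) in the ETS1-FLI1 window, 1 (0.236 kb) in the EWSR1 window and 1 (0.235 kb) in the ERG window, ranked by −log10 p, with 71.4% of TC-71 SMC1 peaks then listed in TC-32, against 100% before, and 83.3% of TC-32 SMC1 peaks and 100% of TC-32 domains listed in TC-71; fewer TC-32 peaks remain by construction. A −log10 q of at least 5 put 100% of TC-32 domains in TC-71 and 0% of TC-32 SMC1 peaks in a domain. Windows wider by 50 kb took in 1 TC-32 domain (0.365 kb) at ETS1-FLI1 and 1 TC-71 domain (0.376 kb) at ERG, and SMC1 covered 0.761 kb at ERG in TC-71 and 1.42 kb in TC-32. Ranked by covered length, the leading EWSR1 domain was 2434 in TC-71 and 5128 in TC-32. Domain-free stretches at other thresholds, chosen after seeing the data, were 2030 and 2048 kb in TC-71 and 1225 kb in TC-32 at ETS1-FLI1, and 1170 and 1240 kb in TC-71 and 1240 kb in TC-32 at ERG.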
